A study of Rattus norvegicus with 27 samples.

Results

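Hspa5, Ddit3 and Atf4 are genes of the endoplasmic reticulum stress response, and they were followed here in primary lung fibroblasts of Sprague-Dawley rats over 7 groups of substrate and day. The 3 genes were taken from the raw count table by Ensembl rat gene ID (ENSRNOG00000018294, ENSRNOG00000006789 and ENSRNOG00000017801), out of 32753 IDs in all. The table names genes by ID alone, so the symbols came with the choice of genes and not from the files. All 3 IDs passed the filter on low counts, which left 14258 genes.

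Per the labels, the fibroblasts were isolated from lung with beads against CD90, the Thy-1 surface antigen, and kept in MucilAir medium. They grew either on plastic or on PDMS, a soft silicone rubber with a stiffness of 3 to 5 kPa, each under a coat of 38 µg/ml collagen I from rat tail. RNA-seq libraries were made from the soft substrate at days 2, 4, 7 and 14 (groups PDMS day 2 and so on) and from plastic at days 4, 7 and 14. Each group held 4 libraries, save Plastic day 7 with 3. The count table's column names mark every library as MonoCulture, WT and Non, terms they do not explain. No age is given, and nothing in the labels ties a library to an animal, an isolation or a dish. The p-values therefore speak of the spread among these libraries, and some of that spread may be technical. The cell type on the label was not checked against marker genes, since no ID could be paired with a symbol.

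The endoplasmic reticulum folds proteins bound for secretion, and fibroblasts that lay down collagen pass a heavy load through it. Hspa5 encodes BiP, the chaperone that binds unfolded chains there and that also holds the stress sensors PERK, IRE1 and ATF6 inactive. When unfolded protein builds up, PERK slows general translation while translation of Atf4 messenger RNA goes up, and the transcription factor ATF4 then switches on genes for amino acid supply and Ddit3. Ddit3 encodes CHOP, a transcription factor linked to cell death under prolonged stress. Much of the control of ATF4 lies in translation, which the messenger RNA level does not show.

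Stress sensors act on these genes through short promoter elements, so the 250 bases before each gene's start are given from RefSeq (GRCr8 assembly; 3 of 3 symbols matched), 5′ to 3′ on the plus strand, which is the strand of each gene. Capitals mark matches to 4 motifs searched on both strands. They were the endoplasmic reticulum stress element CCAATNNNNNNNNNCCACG, known to bind ATF6, a looser form of it, CCAATNNNNNNNNNNCACG, which includes the former and was chosen after the sequences were seen, the core TGACGTG of the unfolded protein response element, and the core TGATGNAA of sites for ATF4 with C/EBP partners.
Hspa5 (chr3:38452766-38453015): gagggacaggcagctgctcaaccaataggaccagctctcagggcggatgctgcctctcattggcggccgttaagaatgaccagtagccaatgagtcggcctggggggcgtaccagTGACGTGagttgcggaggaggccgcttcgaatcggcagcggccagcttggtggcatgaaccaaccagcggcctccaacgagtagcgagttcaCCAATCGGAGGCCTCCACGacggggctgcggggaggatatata
Ddit3 (chr7:65001445-65001694): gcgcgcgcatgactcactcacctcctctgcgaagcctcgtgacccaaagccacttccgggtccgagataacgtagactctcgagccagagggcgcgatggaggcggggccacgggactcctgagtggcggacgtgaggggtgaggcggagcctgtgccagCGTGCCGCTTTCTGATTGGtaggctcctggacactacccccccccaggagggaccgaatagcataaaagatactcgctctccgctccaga
Atf4 (chr7:113684431-113684680): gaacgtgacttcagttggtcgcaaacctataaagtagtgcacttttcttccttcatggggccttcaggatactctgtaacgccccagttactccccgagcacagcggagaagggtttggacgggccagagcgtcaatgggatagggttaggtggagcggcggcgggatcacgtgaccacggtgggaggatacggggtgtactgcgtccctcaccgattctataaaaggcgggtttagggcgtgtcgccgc

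The Hspa5 promoter held the full stress element 25 to 43 bases before the start, and TGACGTG 129 to 135 bases before it. Of 33469 promoters of the same length, 0.0657% held the full element and 1.54% held TGACGTG. The Ddit3 promoter held the looser element on the opposite strand, 72 to 90 bases before the start, which 0.173% of promoters held. In the Atf4 window none of the 4 motifs was found, and TGATGNAA, which 3.4% of promoters held, was in none of the 3 windows. Only these 250 bases were searched, so a site further from the start would be missed, and absence here does not mean that a gene lacks one. A match is only a string of letters, and no factor binding was measured here.

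Levels are given as CPM, counts per M (mega) reads of a library size scaled by TMM, which lines libraries up on the bulk of their genes. Library totals ran from 17.3 to 25.3 M counts, and the TMM factors from a group mean of 1.09 at PDMS day 2 to 0.974 at PDMS day 14 and 0.906 at Plastic day 14. Scaling by library size alone would therefore shift the median of all genes by -0.16 on the log2 scale from day 2 to day 14 on PDMS and by -0.16 from day 4 to day 14 on plastic. Hspa5 was read 14918 to 43128 times per library, Atf4 3582 to 8273 times and Ddit3 288 to 490 times. Counting error alone gives a coefficient of variation of at most 5.89% for Ddit3 and 1.67% for Atf4. CPM is not corrected for gene length, so levels are compared within a gene and not between genes. In bulk RNA, fewer cells that make a message and less message per cell cannot be told apart.

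**Figure D1:**
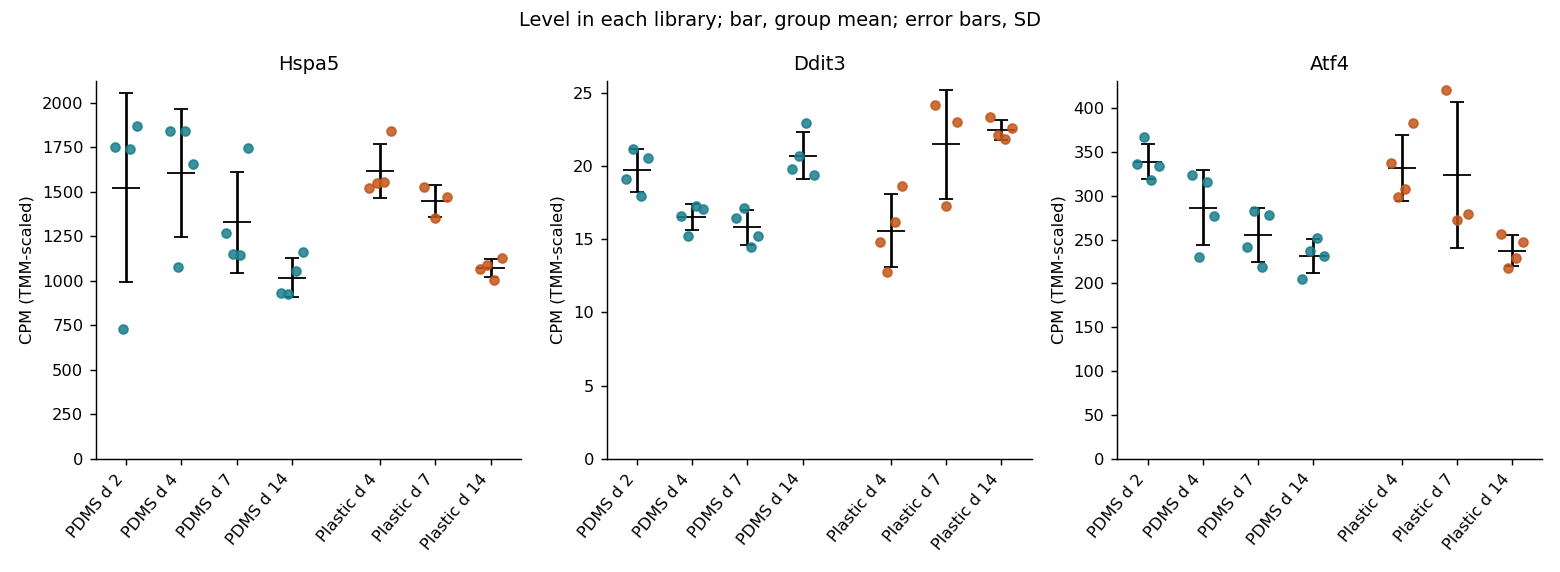
Level of Hspa5, Ddit3 and Atf4 in CPM (linear axis from 0) in each of the 27 libraries, by group; points are libraries, short bars group means and error bars SD (n = 4, or 3 for Plastic day 7). The group means of Hspa5 and Atf4 are lower at day 14 than at day 4 on both substrates, while those of Ddit3 are higher. For Atf4 on PDMS the libraries of these days overlap and the difference did not pass (edgeR adjusted p = 0.0857). PDMS day 2 replicate 2 lies far below its group in Hspa5 at 729 CPM.

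Atf4, the transcription factor downstream of PERK, was lower late in culture than early. Between day 2 and day 14 its messenger RNA on PDMS fell by 31.8%, and between day 4 and day 14 on plastic it fell by 28.4%. Over the 4 PDMS day 2 libraries it stood at 336, 367, 318 and 334 CPM, and at PDMS day 14 at 205, 237, 252 and 231 CPM. Every day 14 library was thus below every day 2 library, and the log2 fold change was -0.55 ± 0.13 (SE; edgeR quasi-likelihood test, adjusted p = 0.00192, n = 4 and 4). In this contrast 51.6% of all genes tested were called and 27.3% were called lower, and in 20.2% of genes the day 14 libraries lay wholly below those of day 2, so such a fall was common among genes. Between these days PDMS day 4 stood at 323, 230, 315 and 277 CPM. PDMS day 7 stood at 241, 283, 218 and 278 CPM. None of the steps from one sampled day to the next passed on PDMS (edgeR adjusted p = 0.241, 0.728 and 0.518, with 10%, 0.147% and 5.53% of all genes called), nor did day 14 against day 4, at -0.31 ± 0.13 (adjusted p = 0.0857). When libraries were scaled by their totals alone, that last difference passed, at -0.42 (adjusted p = 0.0215).

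On plastic, Atf4 stood at 338, 299, 308 and 383 CPM at day 4. Plastic day 7 gave 420, 272 and 279 CPM, replicate 1 being the highest of the 27 libraries. At Plastic day 14 it stood at 256, 218, 229 and 247 CPM, below each day 4 and day 7 library of that substrate. From day 4 to day 14 the log2 fold change was -0.48 ± 0.13 (edgeR adjusted p = 0.00974, n = 4 and 4), in a contrast with 32.6% of genes called and 18.3% called lower, and 14.3% lower without overlap. The step from day 7 to day 14, at -0.45 ± 0.14, did not pass (edgeR adjusted p = 0.173, n = 3 and 4; DESeq2 called it, at 0.0496). Without Plastic day 7 replicate 1 it was -0.22 (edgeR adjusted p = 0.65). In that step edgeR called 12 genes of 14258 (0.0842%) and DESeq2 364, while 7.22% lay lower at day 14 without overlap.

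Ddit3, which encodes CHOP and is a target of ATF4, moved opposite to Atf4 from day 4 to day 14 on plastic, where both changes were called. On PDMS the fall of Atf4 over these days was not called (edgeR adjusted p = 0.0857). From day 2 to day 4 on PDMS neither gene was called, with estimates of -0.25 for Ddit3 and -0.24 for Atf4. Ddit3 rose from day 4 to day 14 by 44.1% on plastic and by 25.3% on PDMS, although its PDMS day 2 level was close to that of day 14. At Plastic day 4 it stood at 14.8, 12.8, 16.2 and 18.6 CPM. At Plastic day 14 it stood at 23.4, 22.1, 21.8 and 22.6 CPM, all above the day 4 libraries. The log2 fold change was 0.53 ± 0.12 (edgeR adjusted p = 0.00217, n = 4 and 4), and 14.3% of genes were called higher in that contrast and 13.2% lay higher without overlap. Plastic day 7 lay at 24.2, 17.3 and 23.0 CPM. The step from day 4 to day 7 on plastic, at 0.46 ± 0.12, did not pass with edgeR (adjusted p = 0.121), which called 0% of genes there. DESeq2 called it (adjusted p = 0.01), in a run that called 388 genes. Leaving out 1 library gave 0.37 to 0.60 (edgeR adjusted p = 0.0372 to 0.372). Only the fit without Plastic day 4 replicate 3 called it, and that fit called 528 genes.

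On PDMS, Ddit3 was lowest at days 4 and 7. PDMS day 2 stood at 19.1, 21.2, 17.96 and 20.6 CPM, and PDMS day 4 at 16.6, 15.2, 17.3 and 17.0 CPM, which lie below all 4 of the day 2 values. That step of -0.25 ± 0.11 did not pass with edgeR (adjusted p = 0.152), which called 1428 genes there. DESeq2 called it (adjusted p = 0.0494), in a run that called 2414 genes. Of all genes, 4.11% lay lower at day 4 than at day 2 without overlap. PDMS day 7 stood at 16.4, 17.1, 14.5 and 15.2 CPM. PDMS day 14 stood at 19.8, 20.7, 23.0 and 19.4 CPM, above every day 4 and day 7 library on PDMS. Ddit3 rose from day 7 to day 14 by 0.39 ± 0.12 (edgeR adjusted p = 0.0498, 2.92% of genes called higher, 12.3% higher without overlap) and from day 4 to day 14 by 0.32 ± 0.12 (adjusted p = 0.0391, 13.4% called higher, 16.3% higher without overlap). Day 14 against day 2 gave 0.07 ± 0.11 (adjusted p = 0.621), with a 95% interval of -0.17 to 0.31. These rises on PDMS sat close to the threshold, and leaving out 1 library ended the call in 8 of 8 fits for day 7 (adjusted p = 0.0556 to 0.161) and in 7 of 8 for day 4 (up to 0.119; kept without PDMS day 14 replicate 4). With the replicate number as a block, the rise from day 7 was not called (0.39, edgeR adjusted p = 0.0508). Scaled by library totals alone, they kept their sign and were not called, at 0.32 (adjusted p = 0.0981) and 0.21 (adjusted p = 0.168), and day 14 against day 2 turned to -0.09. In the RefSeq annotation 2 genes overlap Ddit3, Mars1 and LOC134479709, and how the authors' counting treated shared reads is not given in the sources used here.

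Hspa5, the chaperone BiP, was lower at day 14 than at day 4 whatever the substrate. On PDMS it fell by 36.6%, and on plastic it fell by 33.7%. On PDMS day 4 it stood at 1844, 1079, 1841 and 1657 CPM, and at PDMS day 14 at 933, 925, 1053 and 1159 CPM. Replicate 2 of PDMS day 4 was the only one of its group inside the day 14 range. The log2 fold change was -0.66 ± 0.22 (edgeR adjusted p = 0.0286, n = 4 and 4), where 28.6% of genes were called and 15.2% called lower. Leaving out 1 library ended this call in 5 of 8 fits (adjusted p up to 0.092), those without PDMS day 14 replicates 1, 2 and 3 and PDMS day 4 replicates 1 and 3. PDMS day 7, at 1271, 1151, 1144 and 1746 CPM, lay between these days, and neither step passed (adjusted p = 0.72 and 0.255).

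On plastic the libraries of a group lay closer together in Hspa5. Plastic day 4 stood at 1523, 1549, 1554 and 1842 CPM, Plastic day 7 at 1524, 1352 and 1470 CPM, and Plastic day 14 at 1065, 1088, 1006 and 1129 CPM. Every day 14 library was below every day 4 and day 7 library, as for 14.3% of all genes against day 4 and 7.22% against day 7. From day 4 to day 14 the log2 fold change was -0.59 ± 0.22 (edgeR adjusted p = 0.0403, n = 4 and 4), where 18.3% of all genes were called lower. This call was lost when any 1 library of these groups was left out (adjusted p = 0.0596 to 0.0945), while the value stayed between -0.62 and -0.52. It was also lost when 2 pairs of closely alike plastic libraries were each summed to 1 (-0.61, adjusted p = 0.109), namely Plastic day 4 replicates 1 and 2 and Plastic day 14 replicates 2 and 3.

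PDMS day 2 was split in Hspa5. Replicates 1, 3 and 4 stood at 1753, 1742 and 1869 CPM, and replicate 2 at 729 CPM, the lowest of the 27 libraries. The same library had the highest Ddit3 and Atf4 of its group, at 21.2 and 367 CPM, and also the smallest total, 17.3 M counts, and the largest TMM factor of the series, 1.18. On counts per library size alone its Hspa5 was 863 CPM against 1798 to 1951 in the other 3, so it stood well below them on that scale too, though by less than with its TMM factor. With it, PDMS day 14 against day 2 gave -0.58 ± 0.22 for Hspa5 (edgeR adjusted p = 0.0289), and without it -0.84 ± 0.16 (adjusted p = 0.000432). In this contrast 51.6% of all genes (7358) were called and 27.3% called lower with that library, and 6854 genes were called without that library. Because 1 estimate of the spread served all groups, leaving it out also tightened the other contrasts. Hspa5 then gave -0.65 ± 0.15 for PDMS (edgeR adjusted p = 0.0058) and -0.58 ± 0.15 for plastic (adjusted p = 0.00711) from day 4 to day 14. With that library left out, 4297 and 4808 genes were called in these contrasts, against 4075 and 4641 with all 27. That fit was chosen after seeing the data. The call of day 14 against day 2 was lost in 5 of 8 fits that each left out 1 library, with adjusted p up to 0.117, and in none of these was the library left out PDMS day 2 replicate 2. It was also lost with limma-voom (-0.49, adjusted p = 0.0669) and in a fit of the day 2 and day 14 groups alone (-0.59, adjusted p = 0.143).

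**Figure D2:**
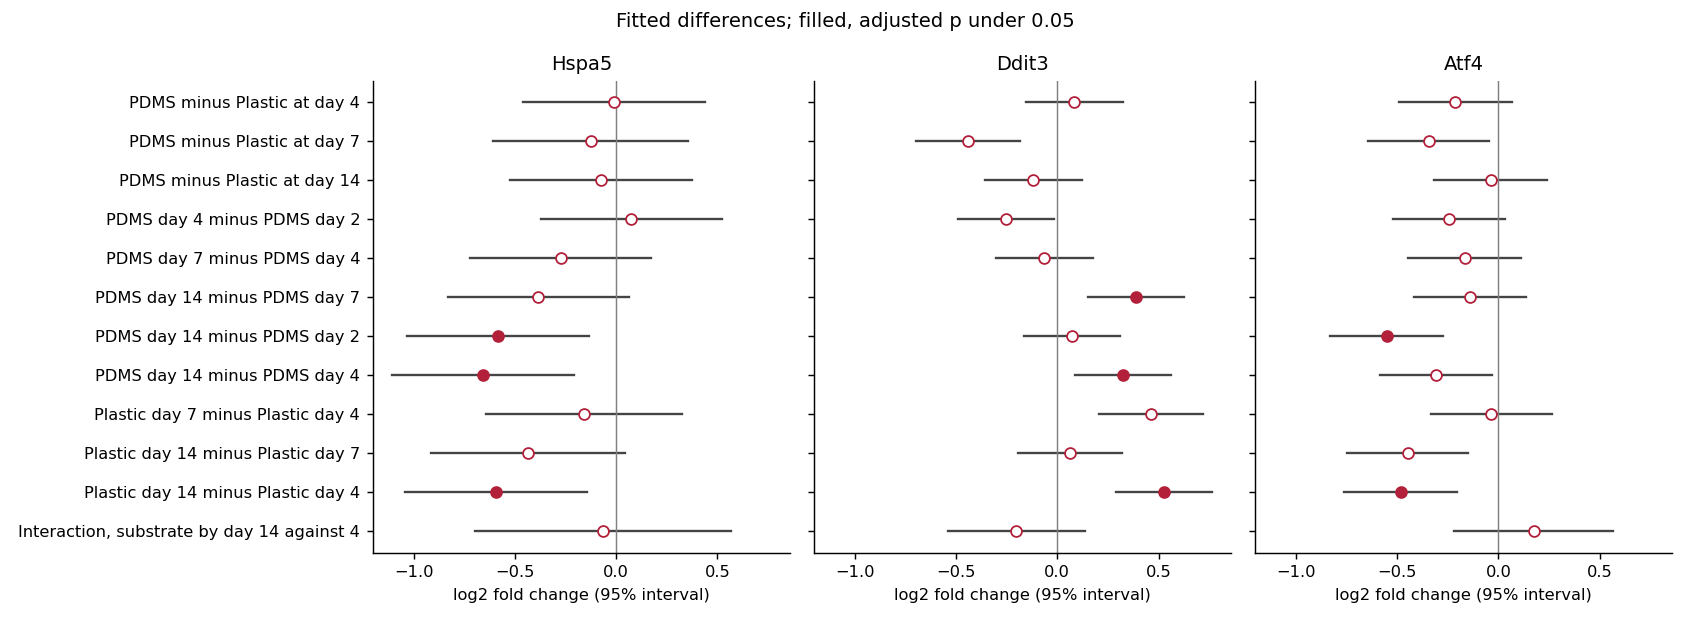
Log2 fold changes (x axis) of Hspa5, Ddit3 and Atf4 for 11 comparisons and 1 interaction, fitted to all 27 libraries, with 95% intervals as lines; filled points passed an adjusted p of 0.05. The 3 substrate comparisons at the top hold no filled point, while day 14 against day 4 on plastic is filled for all 3 genes, to the left for Hspa5 and Atf4 and to the right for Ddit3.

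The substrates were compared at matched days. None of the 3 genes passed between PDMS and plastic at day 4, 7 or 14 with edgeR, and 0%, 0.849% and 0% of all genes were called at those days. For Hspa5 the log2 difference of PDMS against plastic was -0.01 at day 4 (95% interval -0.46 to 0.44), -0.13 at day 7 (-0.61 to 0.36) and -0.08 at day 14 (-0.52 to 0.37). The widest of these bounds, -0.61, is close to the falls of -0.66 and -0.59 from day 4 to day 14. Scaled by library totals, the values at days 4 and 14 turned to 0.042 and 0.029. For Atf4 the 3 differences were -0.21 (-0.49 to 0.07), -0.34 (-0.64 to -0.05) and -0.04 (-0.32 to 0.24), with an edgeR adjusted p of 0.207 at day 7, and the day 14 value turned to 0.066 when scaled by library totals. The day 7 difference rested largely on Plastic day 7 replicate 1, at 420 CPM. Without that library it was -0.11 (edgeR adjusted p = 0.84), and scaled by library totals it was -0.21 (adjusted p = 0.385).

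Ddit3 at day 7 came closest to a substrate difference. The PDMS libraries stood at 14.5 to 17.1 CPM and the plastic ones at 17.3 to 24.2 CPM, with a log2 difference of -0.44 ± 0.12 (edgeR adjusted p = 0.0707, n = 4 and 3). Every PDMS library was below every plastic one, as for 10% of all genes at that day. The gap was narrow, with 17.14 CPM in PDMS replicate 2 against 17.26 CPM in Plastic replicate 3. On counts per library size alone the groups overlapped. PDMS day 7 replicates 1 and 2 then lay above Plastic day 7 replicate 3, which stood at 16.54 CPM. Without Plastic day 7 replicate 3 the difference was -0.58 and passed (edgeR adjusted p = 0.0327). DESeq2 called it with all libraries (-0.47, adjusted p = 0.00593), in a run that called 781 genes against 121 with edgeR. Without Plastic day 7 replicate 1 it was -0.35 (edgeR adjusted p = 0.359), scaled by library totals -0.32 (0.157), and in a fit of these groups alone -0.46 (0.147). At days 4 and 14 the Ddit3 difference was 0.08 (95% interval -0.15 to 0.32) and -0.12 (-0.36 to 0.12).

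The change from day 4 to day 14 was not shown to differ between the substrates for any of the 3 genes. The interaction was -0.06 ± 0.31 for Hspa5, -0.20 ± 0.16 for Ddit3 and 0.17 ± 0.19 for Atf4 (edgeR adjusted p = 0.986, 0.87 and 0.92), and 0% of all genes were called. With DESeq2 and limma-voom none of the 3 was called in it either.

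Ordered by mean log2 CPM, Hspa5 was highest at day 4 on plastic and then on PDMS, followed by Plastic day 7, PDMS day 2 and PDMS day 7, with day 14 last, on plastic and then on PDMS. Neighbours in this order overlapped except PDMS day 7 and Plastic day 14. Atf4 was highest at PDMS day 2, followed by plastic at days 4 and 7, PDMS at days 4 and 7, and day 14 last, again on plastic and then on PDMS, and every pair of neighbours overlapped. Ddit3 was highest on plastic at days 14 and 7, followed by PDMS at days 14, 2, 4 and 7, with Plastic day 4 last, and among neighbours only PDMS day 2 and PDMS day 4 did not overlap. Day 14 thus closed the order for Hspa5 and Atf4 on both substrates.

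The ratio of 2 genes within a library does not depend on how libraries are scaled. Counts of Ddit3 relative to Atf4 stood at a log2 ratio of -4.42 ± 0.14 at Plastic day 4 (SD, n = 4) and -3.40 ± 0.07 at Plastic day 14 (n = 4), a 2.03-fold higher ratio. The PDMS groups held -4.10 ± 0.06 at day 2, -4.10 ± 0.17 at day 4, -4.00 ± 0.14 at day 7 and -3.48 ± 0.09 at day 14 (n = 4 each). The first 3 of these lie within 0.17 of each other, the largest of their SDs. All 8 day 14 libraries of both substrates, at -3.57 or above, stood narrowly over all 19 libraries of other days, which reached -3.60 in Plastic day 7 replicate 4. The share of other gene pairs that separate in this way was not computed. This ratio sets a gene with a higher mean at day 14 than at day 4 over one with a lower mean. Day 14 differed from day 2 on PDMS and from day 4 on each substrate at an exact two-sided permutation p of 0.0286, the smallest that 4 against 4 libraries can give, and 0.103 after Benjamini-Hochberg adjustment over 18 ratio tests. No ratio test passed that adjustment. With so high a smallest p, a pass needed most of the 18 tests to reach it together, so the adjustment cannot decide on any 1 ratio.

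Ddit3 relative to Hspa5 went the same way. Its log2 ratio was -6.70 ± 0.15 at Plastic day 4 (SD, n = 4), -6.09 ± 0.18 at Plastic day 7 (n = 3) and -5.57 ± 0.07 at Plastic day 14 (n = 4). The PDMS groups held -6.57 ± 0.29 at day 4, -6.37 ± 0.33 at day 7 and -5.61 ± 0.19 at day 14 (n = 4 each). From day 4 to day 14 the ratio was 2.19-fold higher on plastic and 1.94-fold higher on PDMS, without overlap (exact permutation p = 0.0286, adjusted 0.103, for each). PDMS day 2 held -6.52, -6.60 and -6.50 in replicates 1, 3 and 4 and -5.10 in replicate 2, above every other library. With replicate 2, day 14 against day 2 on PDMS gave 0.57 (exact permutation p = 0.143, adjusted 0.286), and without it 0.93. For Atf4 relative to Hspa5 no pair of groups tested was free of overlap. The log2 ratio was -2.29 ± 0.09 at Plastic day 4 and -2.18 ± 0.11 at Plastic day 14 (exact permutation p = 0.2, adjusted 0.327), and -2.47 ± 0.16 and -2.13 ± 0.16 at PDMS day 4 and day 14 (exact p = 0.0571, adjusted 0.147; n = 4 each).

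**Figure D3:**
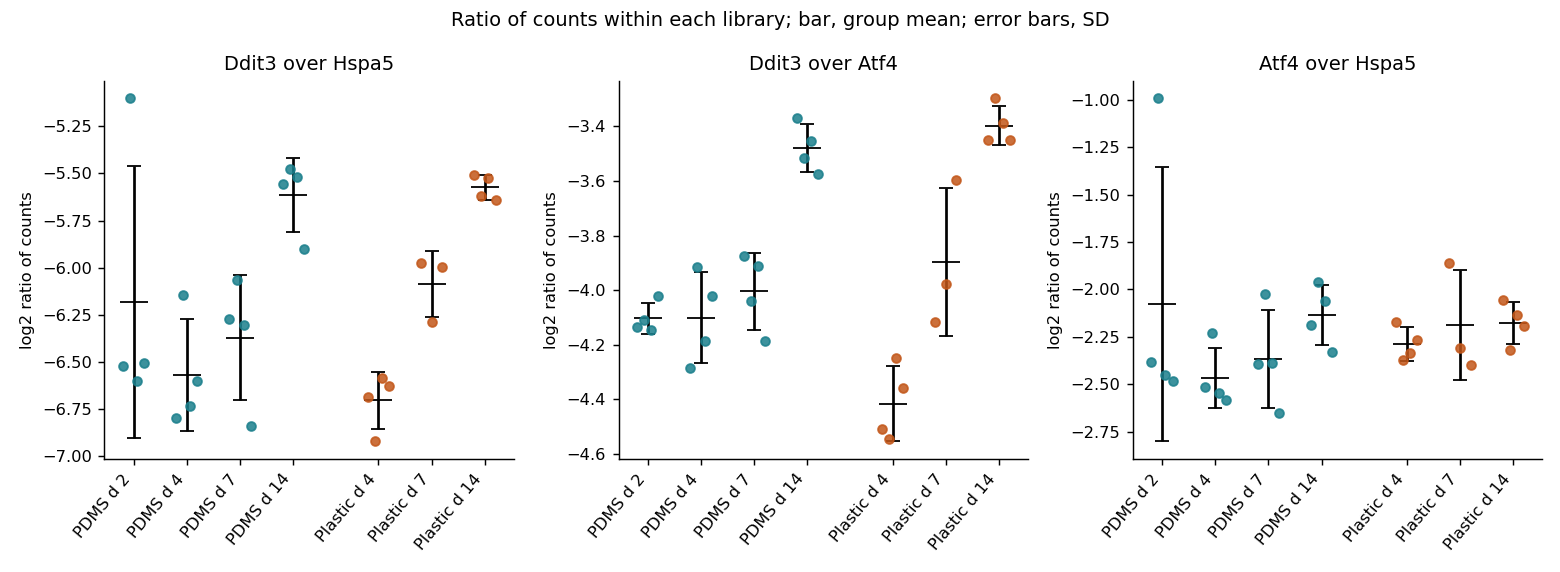
Log2 ratio of counts (y axes, which do not start at 0 and differ between panels) of Ddit3 over Hspa5, Ddit3 over Atf4 and Atf4 over Hspa5 in each library, by group; points are libraries, bars group means and error bars SD. In the middle panel the 8 day 14 libraries lie above the other 19, and in the outer panels PDMS day 2 replicate 2 stands apart at -5.10 and -0.99.

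Each library's deviation from its group mean was correlated between genes over the 27 libraries, which share their scaling, so that a scaling error moves all genes alike. Ddit3 and Atf4 deviated together, with Pearson r = 0.66 and Spearman rho = 0.61, although across all libraries, group differences included, r was -0.01. Plastic day 7 replicate 3 and Plastic day 4 replicate 2 were low in both genes, and Plastic day 4 replicate 4 and Plastic day 7 replicate 1 high in both. Hspa5 and Atf4 gave r = 0.25 within groups, and 0.60 over the 26 libraries without PDMS day 2 replicate 2. Hspa5 and Ddit3 gave r = 0.05, and 0.32 without that library. These are descriptions over libraries that share groups and depth, with no test.

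**Figure D4:**
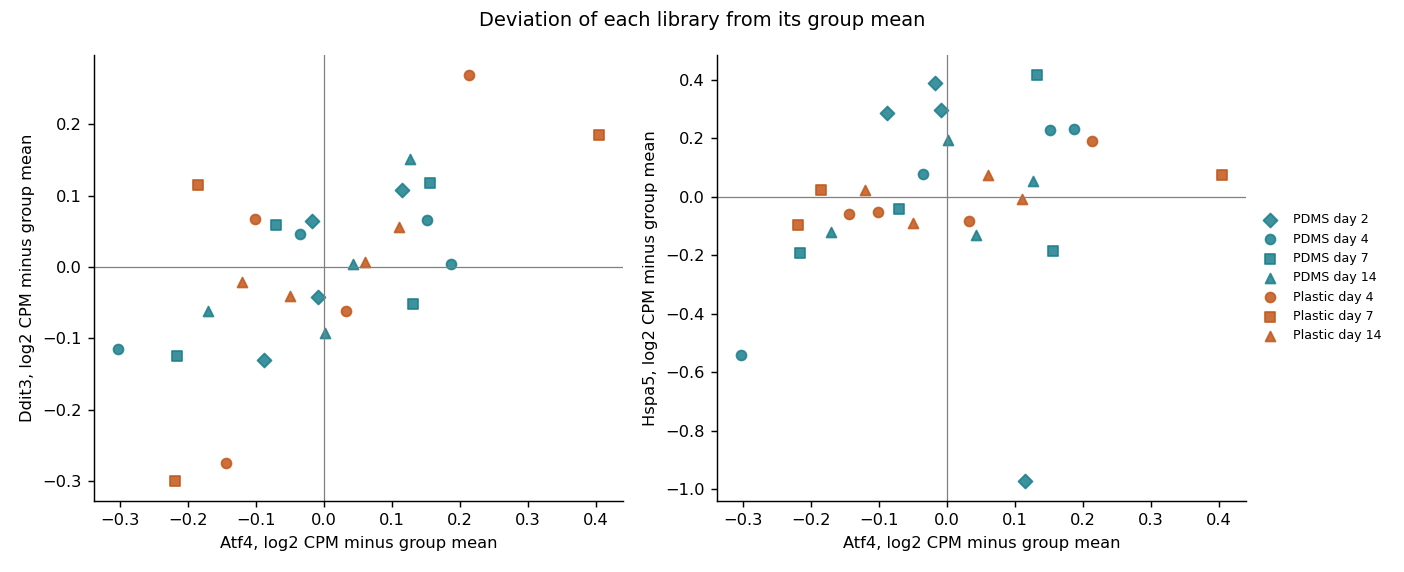
Deviation of log2 CPM from the group mean in each of the 27 libraries, Atf4 on the x axis against Ddit3 (left) and Hspa5 (right), coloured by substrate with 1 symbol per day. The Ddit3 and Atf4 deviations run together (r = 0.66), and on the right PDMS day 2 replicate 2 lies alone at -0.97 in Hspa5.

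The spread between replicates was moderate. The SD within groups on the log2 scale was 0.15 for Ddit3 and 0.18 for Atf4, against a median of 0.35 over all genes. For Hspa5 it was 0.32, and 0.21 without PDMS day 2 replicate 2. The biological coefficient of variation fitted by edgeR was 0.134 for Ddit3, 0.153 for Atf4 and 0.224 for Hspa5, with a median of 0.243 over all genes.

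The gene most like each member over the 27 libraries was taken as the one with the highest Pearson r of log2 CPM among 10507 genes with a mean of at least 5 CPM. Picked over the same libraries, such a gene tends to move as its member does, so its p-values are no separate support. For Hspa5 it was ENSRNOG00000010944 (r = 0.93), which went from 472 ± 49.2 CPM at Plastic day 4 (SD, n = 4) to 389 ± 12.6 at Plastic day 14 (n = 4), a difference that did not pass (edgeR adjusted p = 0.253). For Atf4 it was ENSRNOG00000008022 (r = 0.80), which fell on PDMS from 58.8 ± 11.1 CPM at day 2 to 37.7 ± 4.92 at day 14 (n = 4 each; edgeR adjusted p = 0.000311). For Ddit3 it was ENSRNOG00000026742 (r = 0.71), which rose on plastic from 42.2 ± 10.7 CPM at day 4 to 79.3 ± 9.84 at day 14 (n = 4 each; edgeR adjusted p = 0.00458). Its difference between these days on PDMS did not pass (edgeR adjusted p = 0.0814). Over 0.8, Hspa5 had 5 such genes, Atf4 2 and Ddit3 0. Under -0.8, Hspa5 had 14 genes, Atf4 5 and Ddit3 0. For Atf4 the next gene had almost the same r (0.8003 against 0.8004), so the choice between them means little. The files pair none of these IDs with a name, and the 4 lists of other stress, folding and collagen secretion genes drawn up as symbols were not run for the same reason, so the secretory load itself was not measured here.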

How the data were processed

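The gene counts deposited by the authors are whole numbers, 1 column to a library, under Ensembl rat IDs. Per the labels' protocols, 200 ng of total RNA went into each TruSeq library. Per the series design text, FastQC 0.11.2 served for read quality, bamUtil 1.0.11 and dupRadar 1.4 for duplicate rates, and Cufflinks 2.2 for expression. STAR and DESeq2 appear in the submitters' processing notes without a role. What made the counts, with which strand setting, build and annotation, is not given in the sources used here. The table has 28 columns; 1 matches no sample in the labels and was left out. Depth-scaled and variance-stabilized tables of the authors were left out too.

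The counts went into edgeR 4.0.16 (R 4.3.3), with filterByExpr by group (count of about 10, total of at least 15), TMM, and a quasi-likelihood fit with 1 mean per group over all 27 libraries (20 residual degrees of freedom). Contrasts were tested two-sided, with Benjamini-Hochberg adjustment over all 14258 genes and calls under 0.05. SE is the fitted log2 fold change divided by the root of F, and 95% intervals use the fit's degrees of freedom. Log2 CPM carries a prior count of 2, and ratios add 0.5 to each count. Alternatives used DESeq2 1.42.0 and limma 3.58.1. The fit was also run on simulated counts, drawn independently for each library. The outcome is not given here, so that run is not used as support. The genes named are the 3 members and, for each, the gene with the highest r. The members and lists were chosen with earlier results of these data known. Of 32753 IDs, 0 matched the RefSeq table.

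Replicates were compared by a chi-square statistic per gene over 10605 genes. It was 9.24 and 9.34 for the 2 closely alike plastic pairs, 39.1 for the next, and 157 at the median of 39 pairs. Values above counting noise do not show that 2 libraries came from separate cultures. Each library was still counted on its own, and fits with these pairs summed are given beside. From Plastic day 4 to day 14, edgeR called 2375 genes with the pairs summed, against 4641 with each library counted. Deviations from group means correlated over 0.1 in all 4 same-numbered pairs (0.14 to 0.57) for PDMS day 4 against day 2 alone. By contrast, the mean r of same-numbered pairs ran from -0.41 (Plastic day 14 against day 7) to 0.37 (PDMS against plastic at day 4). In the latter, 3 of 4 pairs were over 0.1, and differently numbered pairs had a mean of -0.14. The labels do not say what a replicate number marks.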

Additional observations from a re-analysis of the deposited data

Results flagged for a closer look

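In each group of 4, the highest and the lowest library were tested for standing apart in CPM by Dixon's gap-to-range ratio at the 95% level. Of 18 groups tested, 2 held such a library, both in Hspa5, where chance gives about 0.9. PDMS day 2 replicate 2 stood at 729 CPM, under 1742 to 1869 CPM in the rest of its group. Plastic day 4 replicate 4 stood at 1842 CPM, above 1523 to 1554 CPM in the other 3, and it was also the highest of its group in Ddit3 (18.6 CPM) and Atf4 (383 CPM). On counts per library size alone its Hspa5 was 1790.5 CPM against 1507 to 1626 in the other 3, a narrower gap. Dixon's ratio was not computed on that scale.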

How the results depend on the processing

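Of 36 log2 fold changes (3 genes in 12 contrasts), the falls of Atf4 on both substrates (day 14 against day 2 on PDMS, day 14 against day 4 on plastic) and the rise of Ddit3 on plastic kept sign and call in every alternative run. The fall of Atf4 on plastic was only just called with alike pairs summed (-0.47, edgeR adjusted p = 0.0472). With DESeq2 size factors in edgeR no call changed. With library size in place of TMM, Hspa5 PDMS minus plastic turned to 0.042 at day 4 and 0.029 at day 14, Atf4 to 0.066 at day 14 and Ddit3 on PDMS day 14 minus day 2 to -0.089, Ddit3 lost its PDMS calls against day 7 (0.32) and day 4 (0.21), and Atf4 day 14 minus day 4 on PDMS was called (-0.42). DESeq2 added Ddit3 PDMS minus plastic at day 7 (-0.47), PDMS day 4 minus day 2 (-0.29) and Plastic day 7 minus day 4 (0.48), and Atf4 Plastic day 14 minus day 7 (-0.46). In each of these contrasts DESeq2 called more genes than edgeR. Calls ended for Hspa5 PDMS day 14 minus day 2 with limma-voom (-0.49) and in a fit of those groups alone (-0.59), for Hspa5 on plastic without a filter (-0.59) or with alike pairs summed (-0.61), and for Ddit3 on PDMS without a filter (0.40 against day 7, 0.33 against day 4) or with alike pairs summed (0.39 against day 7). With the replicate number as a block, Ddit3 PDMS day 14 minus day 7 was 0.39 (edgeR adjusted p = 0.0508), and this replicate block changed no other call.
Leaving out each library in turn ended the Hspa5 calls in 8 of 8 fits on plastic (-0.62 to -0.52), 5 of 8 for PDMS day 14 minus day 2 (-0.84 to -0.44) and 5 of 8 minus day 4 (-0.77 to -0.56). It ended the Ddit3 calls in 8 of 8 for PDMS day 14 minus day 7 (0.34 to 0.42) and 7 of 8 minus day 4 (0.27 to 0.36). Ddit3 was called in 1 of 7 for PDMS minus plastic at day 7 (-0.58 to -0.35, without Plastic day 7 replicate 3) and 1 of 7 for Plastic day 7 minus day 4 (0.37 to 0.60, without Plastic day 4 replicate 3). Uncalled values that crossed 0 were Hspa5 PDMS day 4 minus day 2 (-0.19 to 0.22), Hspa5 (-0.083 to 0.14) and Ddit3 (-0.0012 to 0.18) PDMS minus plastic at day 4, Atf4 PDMS minus plastic at day 14 (-0.081 to 0.016), Atf4 (-0.27 to 0.074) Plastic day 7 minus day 4, Ddit3 (-0.070 to 0.16) Plastic day 14 minus day 7, and the Hspa5 interaction (-0.21 to 0.0077). Of 18 ratio tests none was called in any run. With these group sizes a call needed most of them at the smallest possible p, so unchanged calls do not show stability. Ratios that crossed 0 were Atf4 over Hspa5 for PDMS day 14 minus day 2 (-0.19 to 0.30) and PDMS minus plastic at day 14 (-0.017 to 0.11), Ddit3 over Hspa5 for PDMS minus plastic at day 4 (-0.0076 to 0.21) and day 14 (-0.086 to 0.056), and Ddit3 over Atf4 for PDMS minus plastic at day 7 (-0.22 to 0.044). The cause of these changes was not tested. Depth limits Ddit3 most, with 288 to 490 counts per library.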
